A study of Sus scrofa with 12 samples.

Results

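The genes of the extracellular matrix and of its receptors on the cell surface were examined in boar spermatozoa before and after cryopreservation. They comprise the collagen chains (COL, 43 genes), the laminin chains (LAM, 12), the integrin alpha subunits (ITGA, 16), the integrin beta subunits (ITGB, 8) and the ADAMTS proteases (18). The members were chosen by gene symbol, and 97 of the 20648 mRNA genes in the RefSeq annotation of the pig genome Sscrofa11.1 matched. N6-methyladenosine (m6A) in mRNA had been mapped by methylated RNA immunoprecipitation sequencing (MeRIP-seq), in which RNA fragments bound by an m6A antibody (IP) are compared with the RNA before precipitation (input).

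Ejaculates of Duroc boars had been split. Fresh sperm (Fs) was put into liquid nitrogen at once and kept frozen until RNA extraction. Frozen-thawed sperm (Fts) had been cooled, diluted in lactose-egg yolk extender with glycerol and frozen in straws in liquid nitrogen vapor. The RNA of both groups thus came from material that had been frozen. The groups differ in the slow cooling, the centrifugation before freezing, the lactose-egg yolk extender, the glycerol and the thawing. Whether Fs was diluted in the basic extender is not stated. Each group had 3 IP samples, with 1 list of m6A peaks each, so that 6 of the 12 libraries were analysed here, and the 6 input libraries were not analysed here on their own. The age of the boars is not given in the labels, nor is the boar behind each sample, and p-values measure only the spread between these samples. Before RNA extraction the sperm pellets had been treated with a detergent against somatic cells.

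Collagens are triple helices of 3 chains, each with a long glycine-X-Y repeat, and are the main fibrous proteins of connective tissue. Laminins are cross-shaped trimers of an alpha, a beta and a gamma chain, and they build basement membranes together with collagen IV. Integrins are alpha-beta dimers through which cells hold on to collagen, laminin and fibronectin, and ADAMTS enzymes are secreted metalloproteases that trim procollagens and cut proteoglycans. In the testis many of these proteins belong to the basement membrane of the seminiferous tubules and to the contacts of somatic cells. Mature sperm make little or no new protein and carry RNA left from spermatogenesis. m6A is set by a methyltransferase complex at adenosines within the short consensus RRACH, where R is A or G and H is A, C or T.

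The deposited lists held 8015 to 10378 peaks per Fs sample and 9682 to 11982 per Fts sample, of which 6818 to 8819 and 8482 to 10681 lay on mRNA exons of the same strand. The number of reads behind each peak is not in the lists, which hold only a position, a strand and a MACS score. The score was read here as -10 times the log10 of the p-value of IP against input, but the factor of 10 is uncertain. Scores are therefore compared with one another and not read as p-values. By the read totals that the study gives per library, the IP libraries of Fts were all shallower in mapped reads than those of Fs. These totals were not used here, and the part of read depth in the results was not tested. Labels were checked against marker genes, although a peak list shows methylated regions and not expression. Of 11 annotated sperm markers, 6 had a peak, with 2, 2 and 3 peaks in Fs and 4, 6 and 4 in Fts. PRM2 had 1 peak in Fts2 (score 3100), TNP2 1 in Fts3 (2075), ODF2 3, 3 and 0 in Fts, and ZPBP 1, 2 and 2 in Fts. None of these genes had a peak in Fs. AKAP3 had 2, 1 and 3 in Fs and 0, 0 and 1 in Fts, and CATSPER1 had 1 in Fs2 only. The sperm genes PRM1, TNP1, ODF1, AKAP4 and SMCP had no peak in any sample.

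The sequences of the regions that carry the results are given first. A region is the merged extent of overlapping peaks of the 6 samples on a gene, and 268 regions lay on member genes. The first 10 are those of highest summed score among the 26 regions that had a peak either in all 6 samples or in all 3 samples of 1 group and no sample of the other, and they show what kind of exon was bound. They were read from the RefSeq genome Sscrofa11.1 on the transcript strand, with each match to RRACH in capitals. Peaks in all 6 samples covered these 7 regions, at chr13:31263994-31264080 (minus strand), chr2:68858710-68858793 (minus), chr16:32229567-32229717 (plus), chr11:77135642-77135701 (plus), chr1:34213011-34213181 (minus), chr8:113273423-113273500 (plus) and chr8:113268614-113268691 (plus).
COL7A1 exon 116: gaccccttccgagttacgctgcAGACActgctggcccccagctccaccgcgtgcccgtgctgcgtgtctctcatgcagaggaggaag
COL5A3 exon 13: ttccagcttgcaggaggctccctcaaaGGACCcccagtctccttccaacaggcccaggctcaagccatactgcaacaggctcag
ITGA1 exon 8: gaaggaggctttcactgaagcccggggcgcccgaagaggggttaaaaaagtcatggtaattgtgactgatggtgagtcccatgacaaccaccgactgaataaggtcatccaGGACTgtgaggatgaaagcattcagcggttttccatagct
COL4A2 exon 26: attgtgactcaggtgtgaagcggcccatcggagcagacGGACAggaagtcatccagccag
LAMA2 exon 2: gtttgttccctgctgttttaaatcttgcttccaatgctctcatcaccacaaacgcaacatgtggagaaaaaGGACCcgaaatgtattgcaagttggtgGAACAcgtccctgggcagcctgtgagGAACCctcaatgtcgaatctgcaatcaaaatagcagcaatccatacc
COL25A1 exon 24: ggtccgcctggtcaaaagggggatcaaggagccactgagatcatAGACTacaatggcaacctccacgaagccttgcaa
COL25A1 exon 21: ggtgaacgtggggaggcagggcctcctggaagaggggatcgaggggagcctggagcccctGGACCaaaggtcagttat

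The region of COL25A1 exon 21 was 78 bp long and ran past the 69 bp of that exon in the longest coding transcript. The other 6 were exactly 1 whole coding exon each. All 7 of these regions held at least 1 RRACH match, and ITGA1 exon 8 held the classical GGACT.

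Peaks in all 3 Fs samples and no Fts sample covered 3 further regions of the same choice, at chr7:25230879-25230913 (minus strand), chr13:31288827-31288946 (minus) and chr8:113235624-113235668 (plus). They are shown to set sequences absent from the Fts lists beside those above. The COL11A2 sequence is 35 bp of the 163 bp of exon 4, and the other sequences are whole exons.
COL11A2 exon 4: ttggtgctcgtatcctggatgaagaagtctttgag
COL7A1 exon 17: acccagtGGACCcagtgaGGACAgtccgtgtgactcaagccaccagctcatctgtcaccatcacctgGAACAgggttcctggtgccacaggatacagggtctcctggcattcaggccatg
COL25A1 exon 15: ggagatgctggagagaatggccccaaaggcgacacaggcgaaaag

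No region with peaks in all 3 Fts samples and no Fs sample was among the first 10, so 2 of these regions were added after their values were seen. They lie at chr4:4263586-4263639 (plus strand) and chr1:34025325-34025429 (minus).
COL22A1 exon 47: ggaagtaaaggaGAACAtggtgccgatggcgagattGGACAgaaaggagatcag
LAMA2 exon 13: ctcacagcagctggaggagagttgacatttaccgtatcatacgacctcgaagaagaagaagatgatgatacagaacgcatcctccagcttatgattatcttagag

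The triple-helix code can be read in some of these exons. In COL25A1 exon 15, glycine codons filled all 5 positions of 1 frame of the glycine-X-Y repeat, and in COL22A1 exon 47 all 6. In COL25A1 exon 24 they filled 5 of 9 positions, the repeat ending within the exon. The collagen exons with the highest shared scores held few glycine codons. COL7A1 exon 116 had 1 glycine codon among 28 whole codons, and COL5A3 exon 13 had 3 among 28.

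Member genes held fewer m6A peaks in Fts than in Fs, while the whole lists were longer in Fts on average, with an overlap between the groups. There were 89, 115 and 115 peaks on member exons in Fs (106.3 ± 15.0, SD, n = 3) and 72, 80 and 83 in Fts (78.3 ± 5.69), and the groups did not overlap. Over all genes, the counts were 6860, 8870 and 8775 in Fs and 8515, 10425 and 10726 in Fts, with a peak counted for each gene it lay on. Member peaks thus made up 1.30%, 1.30% and 1.31% of these peak-gene pairs in Fs and 0.846%, 0.767% and 0.774% in Fts. No p is given for these sums, since the members were chosen with earlier results of these data known. In bulk samples such as these, fewer cells of a type and less RNA per cell cannot be told apart, and neither can be told apart from less methylation in a peak list.

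**Figure D1:**
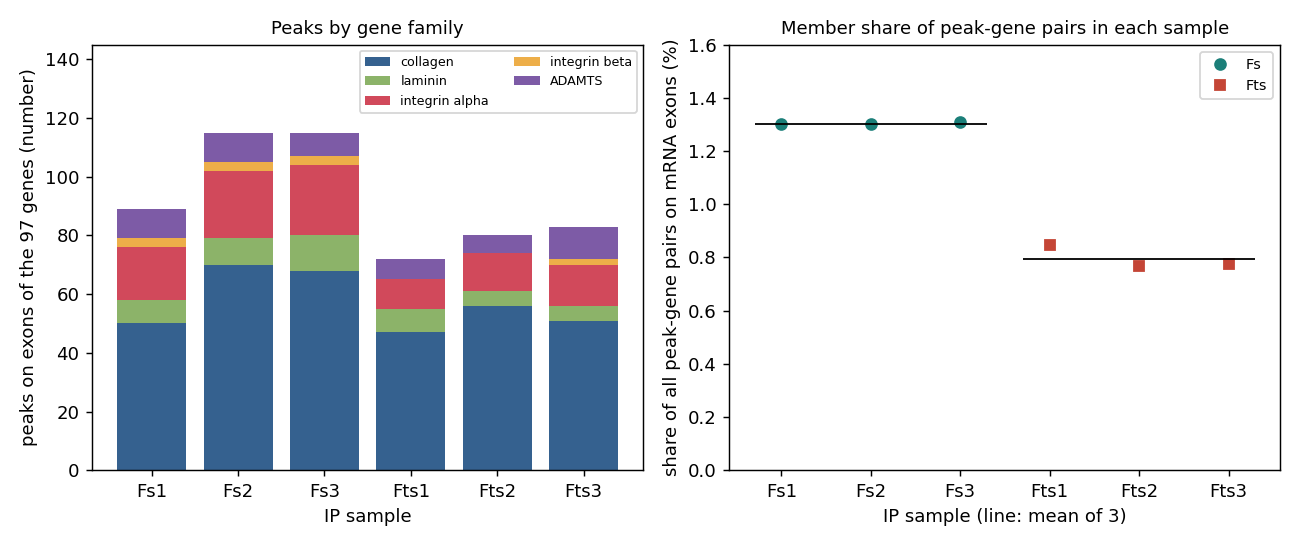
The left panel stacks the number of peaks on member exons by family for each of the 6 IP samples, and the right panel plots the member share of all pairs of a peak and a gene in percent, with lines at the mean of 3 samples. The bars reach 89 to 115 in Fs and 72 to 83 in Fts, and the share is 1.30% to 1.31% in Fs and 0.767% to 0.846% in Fts.

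The same held for strong peaks. With a score of at least 20, members had 40, 42 and 37 peaks in Fs and 25, 25 and 28 in Fts. With a score of at least 50 they had 22, 25 and 19 in Fs and 14, 14 and 17 in Fts. The median score of member peaks was 9.03 to 14.5 in Fs and 10.3 to 12.6 in Fts, so the groups overlapped. Over all exonic peaks it was 10.7 to 11.9 in Fs and 13.1 to 16.2 in Fts, which did not overlap.

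At least 1 sample had a peak on 79 of the 97 members. The other 18 had no peak in any sample, namely ADAMTS1, ADAMTS8, ADAMTS10, ADAMTS13, COL4A1, COL4A6, COL6A2, COL6A3, COL8A2, COL9A3, COL10A1, COL18A1, COL19A1, ITGA6, ITGB2, ITGB4, ITGB8 and LAMB3. ITGB2 is the common beta chain of leukocyte integrins, and ITGA6 and ITGB4 form the laminin receptor of hemidesmosomes. The share of members with a peak was 49.5% to 57.7% in Fs and 37.1% to 50.5% in Fts, with the highest Fts sample above the lowest Fs sample. Of all annotated genes, 25.4% to 31% had a peak in Fs and 26.9% to 31.7% in Fts. Members are long, with a median of 32 exons in the longest coding transcript against 7 over all genes.

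Genes were called where every sample of 1 group had more peaks than every sample of the other. With 3 samples against 3, the exact two-sided permutation test cannot go below p = 0.1, so no single gene can pass the usual threshold, and every gene called here had that p. Called higher in Fts were 3 members, or 3.80% of the 79, against 8.98% of all 11701 genes with a peak (1051). Called lower in Fts were 9 members, or 11.4%, against 5.36% of all genes (627). The mean peak number was higher in Fts for 19 members, lower for 52 and equal for 8, while over all genes it was higher for 5224, lower for 5035 and equal for 1442. With peak numbers scaled to equal totals per sample, 2 members were called higher (2.53% against 9.48% of all genes) and 16 lower, or 20.3% of the 79, against 1302 of the 11701 genes. This setting was added after the data were seen. By covered exonic bases instead of peak number, 7 members were called lower (8.86%), near the 8.17% of all genes. On that measure 3 members were called higher (3.80%, against 12.9%). At a minimum score of 20, 3 of the 12 called members kept their call, COL11A2, COL5A3 and ITGB7, and at 50 COL11A2 and COL7A1 did.

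**Figure D2:**
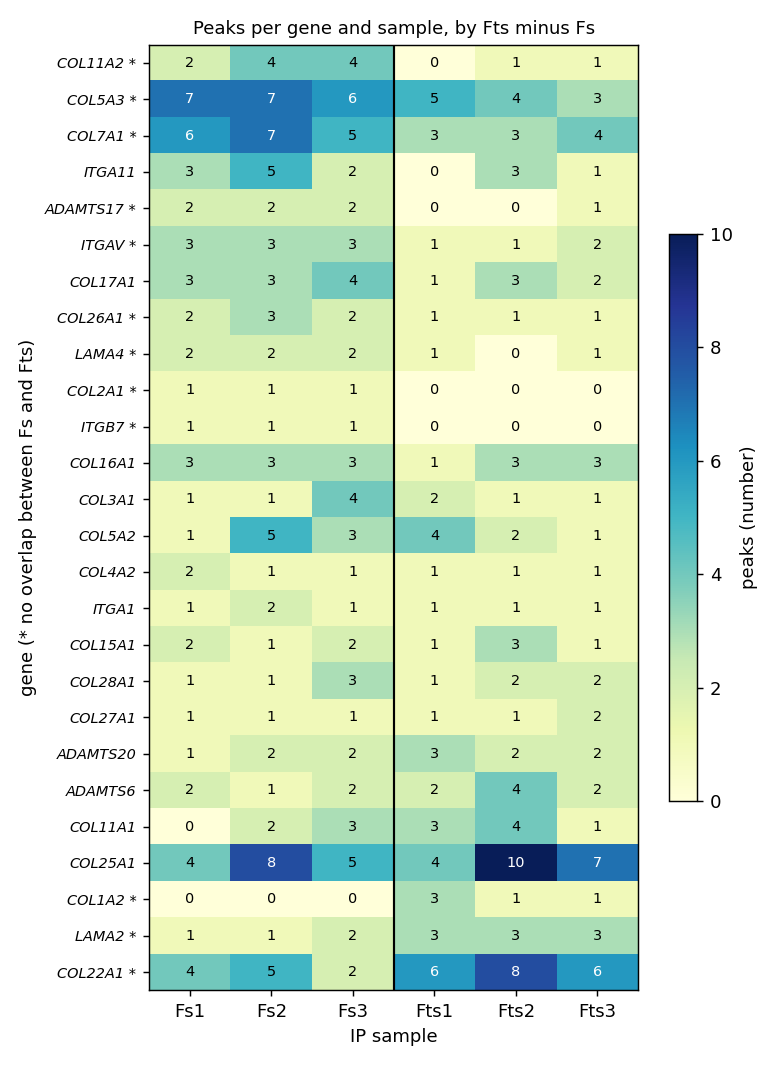
Each cell gives the number of peaks on 1 gene in 1 IP sample, for the 26 named members ordered by the difference of the group means, with stars at the 12 genes whose groups did not overlap. COL11A2, COL5A3 and COL7A1 stand at the top with fewer peaks in Fts, and COL1A2, LAMA2 and COL22A1 at the bottom with more.

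Fibril-forming collagens, which assemble into the banded fibers of tendon, skin and cartilage, had 16, 24 and 24 peaks in Fs and 18, 15 and 12 in Fts over 11 genes. The groups overlapped, since Fts1 was above Fs1. COL5A3, which codes for the alpha-3 chain of the minor fibril collagen V, had 7, 7 and 6 peaks in Fs and 5, 4 and 3 in Fts. All Fs samples were above all Fts samples (6.67 ± 0.577 against 4.00 ± 1), but among peaks with a score of at least 50 the difference of the means turned to 0.667 in favor of Fts. COL11A2, a collagen XI chain of cartilage, had 2, 4 and 4 peaks in Fs and 0, 1 and 1 in Fts, and the groups did not overlap. A region of 35 bp in its exon 4 scored 67.8, 94.6 and 202.4 in the Fs samples and had no peak in Fts. COL2A1, the main collagen of cartilage, had 1 peak in each Fs sample and none in Fts, at its 54 bp exon 42 with low scores of 13.8, 7.87 and 3.08. For COL1A2, the alpha-2 chain of collagen I, no Fs sample had a peak, and Fts1 had 3 and Fts2 and Fts3 1 each. This gene spans chr9:74174484-74210407 and has 53 exons, and its highest score was 19.0, so that no peak was left at a minimum of 20. The other collagen I gene, COL1A1, went the other way, with 2, 1 and 2 peaks in Fs and 0, 0 and 1 in Fts. Its groups overlapped at 1.

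Of 4 further fibril-forming genes, COL11A1 had 0, 2 and 3 peaks in Fs and 3, 4 and 1 in Fts. COL5A2 had 1, 5 and 3 in Fs and 4, 2 and 1 in Fts, and its difference turned from -0.667 to 0.333 without Fs replicate 2. COL3A1 had 1, 1 and 4 in Fs and 2, 1 and 1 in Fts, and its difference likewise turned to 0.333 without Fs replicate 3. COL27A1 had 1 peak in each sample but Fts3, which had 2. For none of these 4 were the groups separate.

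COL7A1, whose product forms the anchoring fibrils that tie the epidermal basement membrane to the dermis, had 6, 7 and 5 peaks in Fs and 3, 3 and 4 in Fts. Every Fs sample was above every Fts sample (6.00 ± 1 against 3.33 ± 0.577). The gene has 119 exons on chr13:31262750-31295112. At exon 116 the scores were 492.5, 382.4 and 240.1 in Fs and 467.2, 305.3 and 342.8 in Fts, and the groups overlapped. At exon 14 they were 601.6, 502.6 and 358.4 in Fs and 579.9 and 665.8 in Fts1 and Fts2. Fts3 had no peak there but had one at the neighboring exon 13, which no other sample had. At exon 17 the 3 Fs samples scored 43.4, 116.5 and 112.6, and no Fts sample had a peak, although Fts3 alone had a peak at exon 16. How the program behind the lists chose between neighboring exons is not stated.

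**Figure D3:**
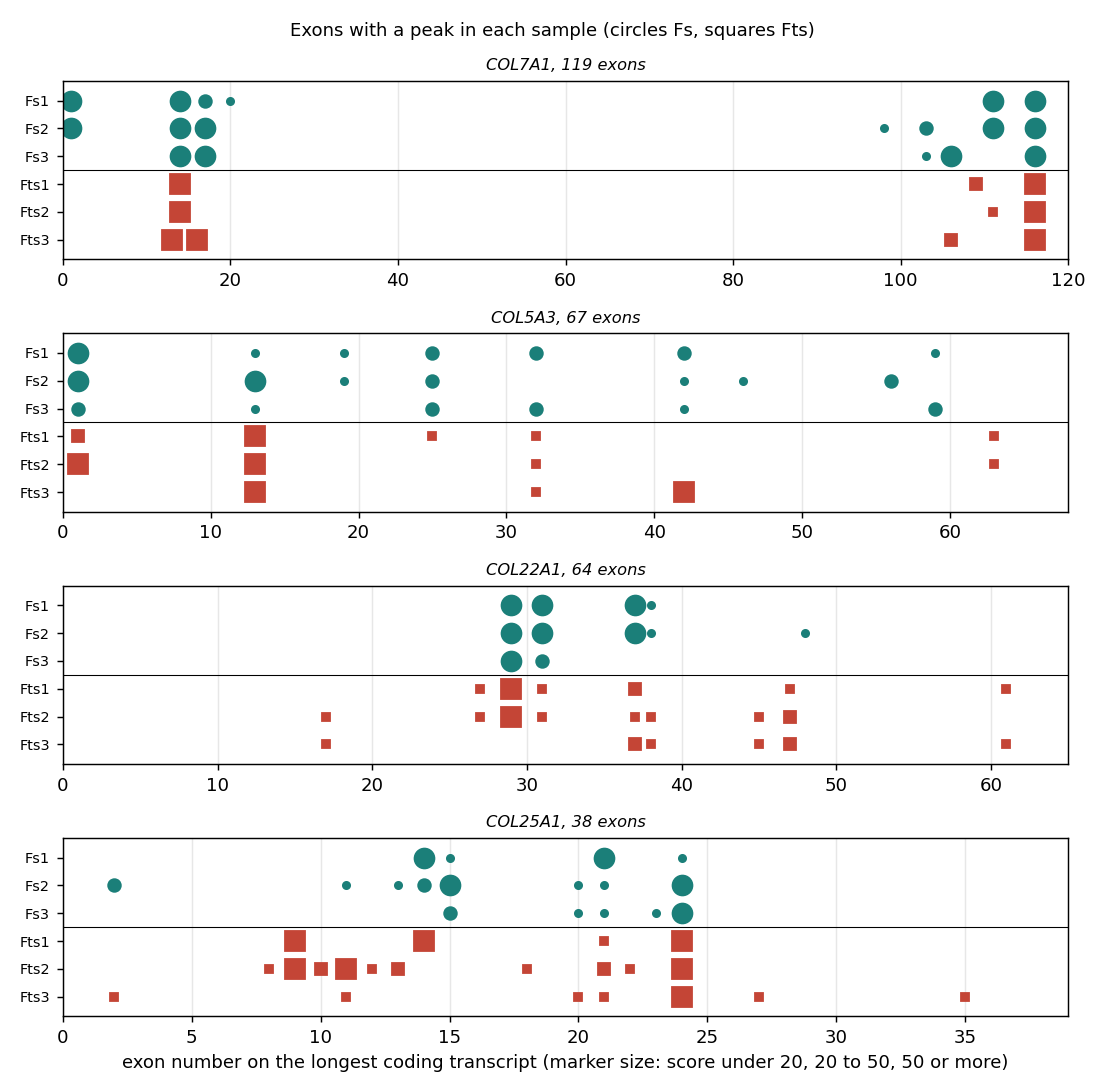
Each marker is an exon with a peak in 1 IP sample, placed by exon number in the longest coding transcript of COL7A1, COL5A3, COL22A1 and COL25A1, and its size gives the score (under 20, 20 to 50, or 50 and more). The peaks of COL7A1 lie near both ends of the gene in all 6 samples, and none lies between exons 20 and 98.

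FACIT collagens, which sit on the surface of fibrils and have interrupted helices, had 9, 14 and 12 peaks in Fs and 10, 16 and 14 in Fts over 10 genes. The groups overlapped, and with numbers scaled to equal totals the difference of the means changed sign, from 1.67 to -0.733. COL22A1, known from the junctions between muscle and tendon, had 4, 5 and 2 peaks in Fs and 6, 8 and 6 in Fts. Every Fts sample was above every Fs sample (3.67 ± 1.53 against 6.67 ± 1.15), but this order rested on low scores. Among peaks with a score of at least 20 its difference was -0.667, at 50 it was -1.67, and with numbers scaled to equal totals the groups overlapped. Its exon 29, on chr4:4206451-4206513, had the highest summed score of all member regions, with 611.7, 462.6 and 275.8 in Fs and 733.1 and 690.4 in Fts1 and Fts2. That is within the top 0.936% to 2.61% of the deposited peaks of the Fs samples and the top 1.76% and 3.34% of those of Fts1 and Fts2. Fts3 had no peak at exon 29. Exon 47, shown above, scored 5.92, 41.0 and 46.6 in Fts and had no peak in Fs. COL16A1, also a FACIT collagen, had 3 peaks in each Fs sample and 1, 3 and 3 in Fts.

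Transmembrane collagens, which are anchored in the plasma membrane by an N-terminal segment, had 10, 14 and 12 peaks in Fs and 9, 13 and 11 in Fts over 4 genes. COL25A1, known from neurons and from muscle innervation, had 4, 8 and 5 peaks in Fs and 4, 10 and 7 in Fts, and its difference turned from 1.33 to -0.167 without Fts replicate 2. Its exon 24 had a peak in all 6 samples, with 19.8, 52.7 and 50.4 in Fs and 55.0, 72.9 and 114.7 in Fts. Every Fts score there was above every Fs score. Exon 21 scored 110.5, 7.65 and 4.26 in Fs and 4.94, 42.4 and 15.1 in Fts, a mixed order. Exon 15 scored 10.6, 102.9 and 46.7 in Fs and had no peak in Fts. COL17A1, the hemidesmosomal collagen of epithelia, had 3, 3 and 4 peaks in Fs and 1, 3 and 2 in Fts, with an overlap at 3. COL23A1 had 2 peaks in each Fs sample and 3, 0 and 1 in Fts. Its exon 23 scored 171 and 178 in Fs1 and Fs2 and 163 in Fts3, and exon 24 scored 219 in Fs3 and 121 in Fts1. Exon 25 had a peak in the 3 Fs samples only, with scores of 5.69, 42.0 and 42.9, and exon 26 in Fts1 only.

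Of the other collagens, COL26A1, a small gene of 14 exons first described in testis and ovary, had 2, 3 and 2 peaks in Fs and 1 in each Fts sample. Its exons differed. Exon 1 scored 8.18, 36.5 and 61.9 in Fs and had no peak in Fts, while exon 14, at chr3:9162431-9162591, scored 10.1 and 32.6 in Fs1 and Fs2 and 195.4, 165.4 and 217.1 in Fts. At a minimum score of 50 the difference of the gene was therefore 0.667 in favor of Fts, against -1.33 over all peaks, and the groups overlapped when peaks were joined across exon junctions. COL4A2 codes for the alpha-2 chain of collagen IV, the network of basement membranes, and had 2, 1 and 1 peaks in Fs and 1 in each Fts sample. At its exon 26 the scores were 77.6, 67.0 and 50.8 in Fs and 204.7, 172.5 and 190.5 in Fts, with every Fts sample above every Fs sample. COL15A1 and COL28A1 had 1 to 3 peaks in every sample, with the same mean of 1.67 in both groups. The 6 collagen IV chains together had 4, 4 and 5 peaks in Fs and 2, 2 and 4 in Fts, and the 4 annotated collagen VI chains had 0, 1 and 1 in Fs and 2, 0 and 2 in Fts. Both pairs of groups overlapped.

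Laminin chains had 8, 9 and 12 peaks in Fs and 8, 5 and 5 in Fts, with Fs1 and Fts1 level at 8, and the difference vanished among strong peaks, being 0.333 at a minimum score of 20 and 0 at 50. LAMA2, the alpha chain of muscle laminin, went against the family. It had 1, 1 and 2 peaks in Fs and 3 in each Fts sample (1.33 ± 0.577 against 3 ± 0). This order was lost when peaks were joined across exon junctions and at a minimum score of 20, and at 50 the difference was 0. Exon 2 had a peak in all 6 samples, with 70.2, 117.2 and 59.3 in Fs and 173.2, 41.2 and 208.0 in Fts, and the groups overlapped. Exon 13 scored 51.1, 8.44 and 17.5 in Fts and had no peak in Fs. LAMA4, an alpha chain of blood vessels and fat, had 2 peaks in each Fs sample and 1, 0 and 1 in Fts, and its exon 38 scored 3.43, 37.6 and 23.6 in Fs with no peak in Fts.

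Integrin alpha subunits had 18, 23 and 24 peaks in Fs and 10, 13 and 14 in Fts, and the lowest Fs sample was above the highest Fts sample. ITGAV, the alpha chain of receptors that read the RGD sequence of fibronectin and vitronectin, had 3 peaks in each Fs sample and 1, 1 and 2 in Fts (3 ± 0 against 1.33 ± 0.577). It spans chr15:91604666-91711843. Its highest peak, at exon 2, scored 22.3, 34.3 and 57.3 in Fs and 59.2 in Fts3, with none in the other Fts samples. The 4 collagen-binding alpha subunits had 5, 10 and 7 peaks in Fs and 2, 7 and 3 in Fts. ITGA1, the alpha chain of a collagen IV receptor, had a peak at exon 8 in all 6 samples, with 153.1, 306.8 and 193.6 in Fs and 410.1, 184.6 and 239.5 in Fts. These scores overlapped. ITGA11, a receptor for fibrillar collagen, had 3, 5 and 2 peaks in Fs and 0, 3 and 1 in Fts, which overlapped at 2 and 3. Its exon 5 in Fs2, at 960.3, was the highest score of any member peak, but the same exon scored 256.5 and 4.22 in Fs1 and Fs3 and 215.2 in Fts2. Exon 6 next to it scored 75.6, 6.31 and 15.1 in Fs and had no peak in Fts. The 4 alpha subunits of leukocytes (ITGAD, ITGAE, ITGAL and ITGAM) had 4, 2 and 7 peaks in Fs and 2, 1 and 0 in Fts, an overlap at 2. ITGA5, the fibronectin receptor chain, had a peak at exon 1 that scored 227.5, 152.9 and 191.7 in Fs and 29.9 and 15.3 in Fts1 and Fts3.

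Integrin beta subunits carried few peaks, 3 in each Fs sample and 0, 0 and 2 in Fts over 8 genes. ITGB7, which pairs with alpha chains of lymphocytes that home to the gut, had 1 peak in each Fs sample and none in Fts, at exon 7 with scores of 27.1, 66.5 and 27.2. ITGB1, the partner of most matrix receptors, had 1 weak peak at exon 3 in each Fs sample and in Fts3, with scores of 3.45, 7.34, 8.19 and 9.

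ADAMTS proteases had 10, 10 and 8 peaks in Fs and 7, 6 and 11 in Fts over 18 genes, with Fts3 above all Fs samples. ADAMTS17, an enzyme linked to fibrillin microfibrils, had 2 peaks in each Fs sample and 0, 0 and 1 in Fts (2.00 ± 0 against 0.333 ± 0.577). Its exon 4 scored 168.5, 372.7 and 135.7 in Fs and 294.6 in Fts3, and exon 20 scored 5.90, 7.64 and 5.13 in Fs with no peak in Fts. ADAMTS6 had 2, 1 and 2 peaks in Fs and 2, 4 and 2 in Fts. Its exons 4 and 21 each had weak peaks in all Fts samples and none in Fs, with scores of at most 10.4. ADAMTS20, a versican-cleaving enzyme, had 1, 2 and 2 peaks in Fs and 3, 2 and 2 in Fts. The procollagen N-propeptidases ADAMTS2 and ADAMTS14 together had 3 peaks in Fs1 and none elsewhere.

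By region, 130 of the 268 member regions (48.5%) had a peak in only 1 sample, near the 47.6% of the 26099 regions of all genes. More Fs than Fts samples had the peak at 152 regions (56.7%), and more Fts samples at 89 (33.2%), against 40.4% and 50.2% over all genes. A peak in all 3 Fs samples and no Fts sample was found at 12 regions (4.48%), against 3.64% of all regions, and in all 3 Fts samples and no Fs sample at 7 (2.61%), against 6.79%. Most member regions lay on coding exons, 247 of 268 (92.2%), with 7 in a 5'UTR, 11 in a 3'UTR and 3 on exons outside the longest coding transcript. No region lay on another gene of the same strand, and 1 lay opposite another gene, where COL4A3 and COL4A4 start head to head. How the strand in the lists was assigned is not stated.

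Where a peak was in all 6 samples, the scores of members did not go the way of the peak numbers. Of these 7 regions, every Fts score was above every Fs score at 3 (COL5A3 exon 13, COL4A2 exon 26 and COL25A1 exon 24), against 13.3% of 840 such regions over all genes, and no member region had the opposite order, against 22.7%. COL5A3 exon 13 scored 19.1, 165.3 and 4.41 in Fs and 436.5, 656.6 and 394.7 in Fts, in a gene whose number of peaks went the other way. With 7 regions, 1 region is 14.3%, and this comparison was chosen after the data were seen. The score of a peak depends on the number of reads as well as on the enrichment.

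**Figure D4:**
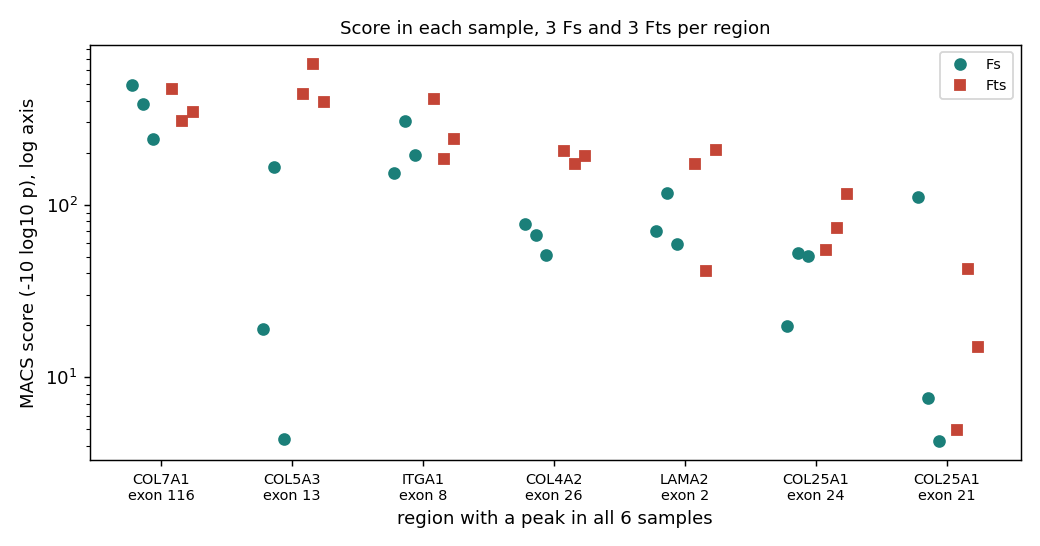
MACS score, on a log axis, in each of the 3 Fs (circles) and 3 Fts (squares) samples at the 7 member regions with a peak in all 6 samples. The scale in the axis label is the reading taken here, and its factor is uncertain. The squares lie above all circles at COL5A3 exon 13, COL4A2 exon 26 and COL25A1 exon 24, and the symbols mix at the other 4 regions.

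The peaks followed the exon structure of the genes. Of the 554 member peaks over the 6 samples, 371 (67.0%) were exactly 1 whole exon, against 44.8% of the 54171 peaks of all genes, and their median length was 87 bp against 167. Collagen genes are built of short exons that hold whole glycine-X-Y triplets. Of their 1899 inner coding exons, 62.6% had a length divisible by 9, against 14.2% over all genes, and 471 of the 1166 exons of 54 bp in the annotation were theirs. Of the 342 collagen peaks, 240 (70.2%) were 1 whole exon, and 55 were 54 bp long, the most frequent length, with 45 bp (19 peaks) and 78 bp (18), which is not divisible by 9, next. Over all genes, 217 peaks were 54 bp long. RNA had been broken to fragments longer than such exons, so a peak says which exon was listed, not where in the transcript the methylated base lies.

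**Figure D5:**
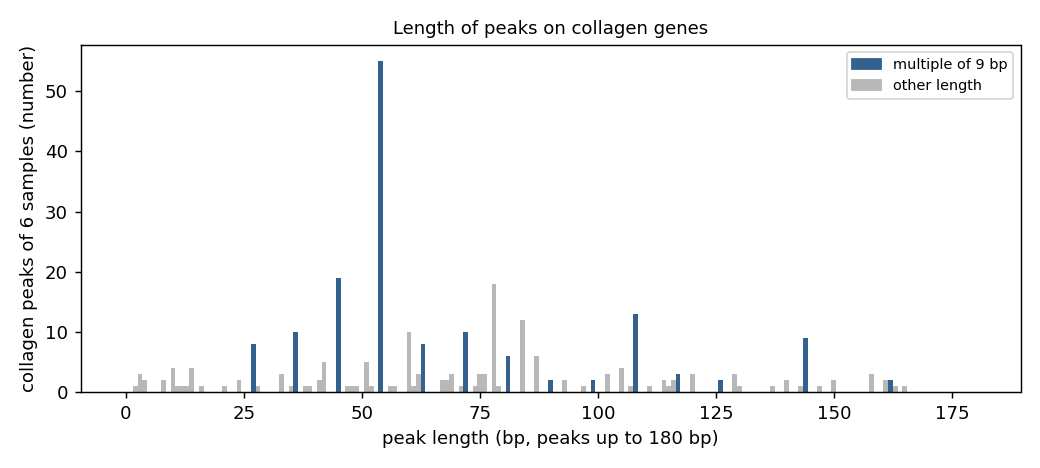
Number of peaks on collagen genes in the 6 samples together by peak length in bp, up to 180 bp, with lengths divisible by 9 in blue. The tallest bar is 54 bp with 55 peaks, followed by 45 bp with 19 and 108 bp with 13 among the lengths divisible by 9, and by 78 bp with 18 and 84 bp with 12 among the others.

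The m6A consensus was searched on the transcript strand, with overlapping matches counted, and GGACT is 1 of the words of RRACH. Of the member peaks, 68.7% ± 1.62 (SD over 6 samples) held RRACH, against 84.6% ± 2.87 of all exonic peaks, and 12.6% ± 1.35 held GGACT, against 22.8% ± 0.918. Since member peaks are shorter, the density was also compared, and it was 13.2 ± 1.2 RRACH per 1000 nt in members and 13.6 ± 0.673 in all. In windows of equal length, 100 bp around the midpoint, RRACH was in 72.1% of member and 72.7% of all peaks and GGACT in 10.3% and 9.50%. The share of member peaks with RRACH was 68.2% ± 2.09 in Fs and 69.3% ± 1.09 in Fts (n = 3 each), a difference within the spread. In the 100 bp windows it had the other sign, with 74% ± 2.94 in Fs and 70.1% ± 2.12 in Fts, while all exonic peaks went from 70.9% ± 0.856 to 74.6% ± 0.401. RRACH was in 7 of the 12 regions seen only in Fs and in 5 of the 7 seen only in Fts.

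Genes that act with the members were read from lists chosen by function. Collagen-making and crosslinking enzymes had 13, 15 and 19 peaks in Fs and 3, 1 and 8 in Fts, and 16 of 21 genes had a peak. None was called higher in Fts (against 8.98% of all genes), and 4 were called lower (against 5.36%), which were the prolyl 3-hydroxylases P3H2 and P3H3 and the galactosyltransferases COLGALT1 and COLGALT2. All 4 modify collagen chains in the endoplasmic reticulum. COLGALT1 had 2, 3 and 4 peaks in Fs and none in Fts. P3H3 had 1, 2 and 1 in Fs and none in Fts, with a highest score of 84.5. BMP1, the procollagen C-proteinase, had 1, 2 and 2 peaks in Fs and 2, 1 and 0 in Fts, and its highest score was 1168, 925.8 and 748.8 in Fs but 37.4 and 56.6 in Fts1 and Fts2. P4HA1, P4HA2, PPIB, SERPINH1 and LOX had no peak.

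The integrin adaptors, which join the integrin tail to actin, had 11, 13 and 19 peaks in Fs and 20, 26 and 23 in Fts, with 12 of 14 genes carrying a peak. Called higher in Fts were 3 of these 12 (against 8.98% of all genes), and 1 was called lower (against 5.36%). The focal adhesion kinase PTK2 had no peak in Fs and 3, 5 and 5 in Fts, with highest scores of 104.4, 253.3 and 324.0. VCL, vinculin, had none in Fs and 1, 3 and 2 in Fts, and ACTN4, an actin crosslinker, had 1, 2 and 2 in Fs and 6 in each Fts sample. Talin 1 (TLN1), which activates integrins, was lower, with 4, 5 and 5 in Fs and 1, 2 and 1 in Fts. The 5 basement membrane partners of laminin had 5 peaks in each Fs sample and 7, 3 and 5 in Fts, and AGRN was called lower with 1 weak peak in each Fs sample and none in Fts. The perlecan gene HSPG2 had 2 or 3 peaks in every sample. The 15 other matrix genes, among them fibrillins, tenascins and ADAMTS substrates, had 13, 13 and 14 peaks in Fs and 8, 6 and 15 in Fts, with 12 genes carrying a peak and no gene called in either direction.

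Markers of other cells moved in both directions beside the member genes. Fibroblast or stromal markers had 3, 4 and 4 peaks in Fs and 4, 0 and 3 in Fts, with 6 of 8 genes carrying a peak. VIM was lower in Fts, with 1 peak in each Fs sample and none in Fts, while POSTN had none in Fs and 2, 0 and 2 in Fts. PDGFRB and LUM had no peak in any sample. Epithelial markers had 1, 1 and 2 peaks in Fs and 6, 7 and 6 in Fts, with 4 of 6 genes carrying a peak. KRT8 was higher in Fts, with none in Fs and 3, 4 and 2 in Fts. KRT18 had 0, 0 and 1 in Fs and 2, 1 and 1 in Fts. KRT19 had 1, 0 and 0 in Fs and 1, 2 and 2 in Fts. CDH1 went the other way, with 0, 1 and 1 in Fs and 0, 0 and 1 in Fts. EPCAM and CLDN4 had no peak. Leukocyte markers had 3 in each Fs sample and 3, 4 and 4 in Fts, with 5 of 8 genes carrying a peak and CD14, CSF1R and CORO1A without one. Sertoli cell markers had 0, 1 and 2 in Fs and 1 in each Fts sample, with 3 of 6 genes carrying a peak, SOX9 higher in Fts, and AMH, WT1 and INHA without one. The other Sertoli cell markers with a peak, CLDN11 with 0, 1 and 1 and GATA4 with 0, 0 and 1 in Fs, had none in Fts. The part of other cells in the difference between Fs and Fts was not tested.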

How the data were processed

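Peaks were called by the authors. Per the labels and the study's methods, reads were trimmed with cutadapt 1.9.3, aligned with HISAT2 to Sscrofa11.1 (susScr11), and peaks of each IP library were found with MACS against input. A program that the methods do not name was used to annotate peaks on mRNA. The authors deposited 6 peak lists with a position, a strand and a score. A table of the authors' differential sites (fold changes and p-values) was not used.

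Each peak was given to every RefSeq mRNA gene (Annotation Release 106) with a same-strand exon that it overlapped by at least 1 bp, in Python 3.11.15, and no peak lay past a chromosome end. The measure was the number of peaks per gene and sample. Sequences were read with samtools 1.23.1. Named members, 26 in all, were those without overlap between groups, those with most peaks, the family members with the highest score, and those with a peak in all 6 samples. The members and lists were chosen with earlier results of these data known. Of the genes that match the symbols, 1 was left out of all counts, and the values of 1 more, which is in the counts, are not reported here. The counting was tested on simulated data. Alternatives included a minimum score of 20 or 50, joining peaks across exon junctions and asking for the peak midpoint on the exon. Others were covered bases, scaling, a replicate block and leaving out each sample.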

Additional observations from a re-analysis of the deposited data

How the results depend on the processing

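The lower number of member peaks in Fts kept its sign in every alternative for which a difference of means was calculated. None was calculated for covered bases. The difference of the means was -28.0 as reported, -13.7 at a minimum score of 20, -7.00 at 50, -13.0 at 20 with peaks joined across exon junctions and -45.7 with numbers scaled to equal totals, the last 2 settings chosen after seeing the data. Without 1 sample it lay between -36.7 and -23.7. Members called higher and lower in Fts were 1 and 3 of 45 at a score of 20 (2.22% and 6.67%, against 11.3% and 4.54% of all genes), 1 and 3 with joining as well, and 0 and 3 of 21 at 50 (0% and 14.3%, against 12.3% and 4.66%). After scaling, 16 were lower. By covered exonic bases, 3 of 79 were higher and 7 lower (3.80% and 8.86%, against 12.9% and 8.17% of all genes). COL11A2, COL5A3, ADAMTS17 and COL22A1 were then not called. Leaving out 1 sample gave 3 to 4 higher and 10 to 12 lower. Regions in all Fts and no Fs samples were 1 at both 20 and 50, and regions in all Fs and no Fts samples were 5 and 2. The Fts regions were 18, 12 and 14 without Fts replicate 1, 2 and 3 (range 7 to 18 over all samples), and the Fs regions were 22 and 20 without Fs replicate 1 and 2 (15 to 22), as fewer samples are then asked for. No shares over all genes or regions stand beside these region counts, the counts without 1 sample or those with joining. Such counts therefore do not show whether members differ from all genes. The share of members with a peak differed by -4.12 percentage points at 50. RRACH and GGACT shares were 72.1% and 10.3% in 100 bp windows. Differences of single genes reversed for ADAMTS6 (-0.667), COL22A1 (-0.667), COL27A1 (-0.333) and COL3A1 (0.333) at a score of 20, for COL22A1 (-1.67), COL26A1 (0.667) and COL5A3 (0.667) at 50, for COL5A2 (0.333) without Fs replicate 2, COL3A1 (0.333) without Fs replicate 3 and COL25A1 (-0.167) without Fts replicate 2. Without 1 sample, these 3 ranged from -1.67 to 0.333, from -1.17 to 0.333 and from -0.167 to 2.83. The cause was not tested.

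The labels do not say that a replicate number marks the same boar, though the study's methods state that Fs and Fts were compared as paired samples. Samples of the same number deviated together in no pair (r = 0.0102, -0.0142 and 0.0128 across 11701 genes, which are not independent replicates). Peak numbers per gene are small, so these values cannot show whether the pairing by number holds. With the replicate block, 5 members were higher (6.33%, against 10.8% of all genes) and 12 lower (15.2%, against 6.87%) in all 3 pairs, and the exact sign-flip test cannot go below p = 0.25. The lists hold no reads per peak, which limits what a missing peak shows.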
